A study of Rattus norvegicus with 9 samples.

Results

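This account concerns the genes of chemokines and of their receptors in rat femurs. Members were gene rows whose name began with Ccl, Cxcl, Ccr, Cxcr, Xcl, Xcr or Ackr and a number, together with Cx3cl1 and Cx3cr1, less 3 genes that the rule leaves out. Of 31125 gene rows, 53 met the name rule, and 40 of these held at least 30 counts over the 9 libraries. The 40 comprise 23 ligands, 13 signalling receptors and 4 atypical receptors. All groups are bulk femur RNA of male rats taken at day 7. In the GMTT group the distal femoral growth plate was injured and treated with a hydrogel, named in the series title as GelMa/TPGS@Tea Polyphenols. In the GPI group the same injury was made and no hydrogel is named, and in the Sham group rats had sham surgery. The labels give 3 rats and 3 libraries a group, do not say whether tissue was pooled, and give no strain or age, and each p-value covers only library-to-library spread, which may be technical. The treatment label of the GMTT group speaks of an intact growth plate although it also names the injury.

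Chemokines are small secreted proteins that steer migrating cells along a gradient. They are classed by the spacing of their first cysteines (CC, CXC, C and CX3C) and act through G protein-coupled receptors on leukocytes and other cells. Inflammatory members are induced in damaged tissue and recruit monocytes, neutrophils or T cells, while homeostatic members place cells in lymphoid organs and marrow. Atypical receptors bind chemokines without G protein signalling and clear or transport them.

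The libraries held 15927429 to 19715997 counts. Levels are given as normalised CPM, counts scaled to the library total (CPM) and then between libraries by the trimmed mean of M values (TMM). A gene was called at an adjusted p below 0.05 in edgeR's quasi-likelihood test over the 15936 genes that passed the low-count filter, and each fold change is given on the log2 scale beside its standard error (SE). Marker lists differed widely between groups. Summed normalised CPM of 8 pan-leukocyte genes ran from 1957 to 2043 in GMTT, from 31.5 to 32.0 in GPI and from 1824 to 1967 in Sham libraries, with no gene of the list at 0. That of 8 skeletal muscle genes ran from 12910 to 13720 in GMTT, from 129200 to 135000 in GPI and from 1331 to 1437 in Sham. Of 8 osteoblast and osteocyte genes, which mark bone, none was at 0 in a group, and the sums, most of which were Col1a1, were 7029 to 7621 in GMTT, 5447 to 5708 in GPI and 5123 to 5560 in Sham. In GPI against Sham Col1a1 was the 1 gene called higher (0.21) and the other 7 were lower, with a median over the list of -1.77. The 8 cartilage genes summed to 40.6 to 46.4 in GMTT, 57.3 to 59.3 in GPI and 35.6 to 39.8 in Sham. Of these 4 were called higher and 2 lower in GPI against Sham, and 2 higher and 1 lower in GMTT against Sham. Matn1 and Ihh were too low to test. Acan was the largest part of each sum. Col2a1 ran against the sums, at 2.39 in GMTT, 3.71 in GPI and 13.9 in Sham on average, and was called lower than in Sham in both other groups. These values stand beside every result here, and their part in the results was not tested. In bulk RNA, fewer cells of a type and less RNA per cell cannot be told apart.

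Per length, on the deposited FPKM scale, the sum of signalling receptors was low in GPI beside both other groups, while that of ligands was lower there by a smaller factor. A few genes carried these sums. The library size implied by the deposited FPKM was 1.29 to 1.30 times the count total in GMTT, 0.598 to 0.608 times in GPI and 1.31 to 1.32 times in Sham, so these values already carry a scaling between libraries. The 13 signalling receptors summed to 129.6 ± 3.61 FPKM in GMTT, 7.32 ± 1.11 in GPI and 138 ± 2.18 in Sham (SD, n = 3 each). Cxcr4 and Ccr2 made up most of these sums in GMTT and Sham. The 23 ligands summed to 135 ± 1.10 FPKM in GMTT, 66.8 ± 3.97 in GPI and 99.9 ± 2.76 in Sham. In GPI most of the ligand sum came from Cxcl14, Ccl21 and Cxcl9. For the 4 atypical receptors the sums were 17.9 ± 1.09, 9.64 ± 0.105 and 25.3 ± 1.27 FPKM in GMTT, GPI and Sham. Their order turns with the unit, since in normalised CPM, not divided by length, they summed to 36.0 ± 1.57 in GMTT, 57.4 ± 2.45 in GPI and 43.7 ± 1.68 in Sham. In GMTT the highest levels were those of Cxcr4 (87.7 ± 2.51 FPKM), Ccl6 (59.0 ± 1.89), Cxcl14 (41.3 ± 4.74) and Ccr2 (31.7 ± 3.25). In GPI they were those of Cxcl14 (31.3 ± 1.75), Ccl21 (12.4 ± 1.09), Cxcl9 (12.1 ± 1.15) and Ackr3 (4.80 ± 0.246), and Ccl21 and Cxcl9 did not differ beyond their spread. Sham libraries had Cxcr4 (113 ± 1.62 FPKM), Cxcl14 (45.8 ± 3.25), Ccl6 (38.6 ± 0.908) and Ackr1 (21.5 ± 1.07) at the top. The table gives Cxcl14 a length of 386 bases and Ackr3 a length of 9906 bases, and a level per length depends on these.

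**Figure D1:**
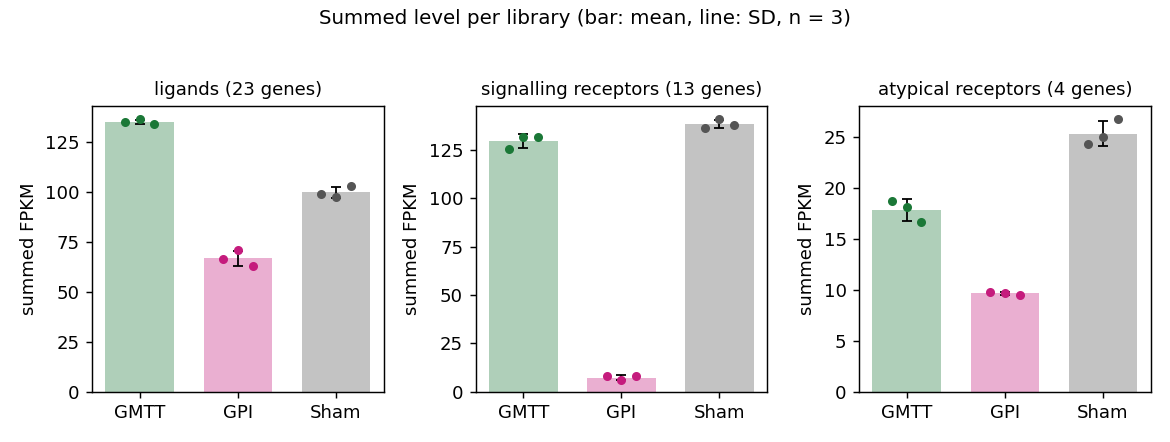
Summed FPKM per library (vertical axes) of 23 ligands, 13 signalling receptors and 4 atypical receptors in GMTT, GPI and Sham femurs; points are libraries, bars are means and lines the SD. Signalling receptors sum to 7.32 FPKM in GPI, against 129.6 in GMTT and 138 in Sham.

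The comparison of GPI with Sham addresses growth plate injury at day 7. Of 12 tested signalling receptors 10 were lower and 2 higher in GPI, of 9 tested inflammatory CC ligands 7 were lower and 1 higher, and Ccl21, Cxcl9, Cxcr5, Ackr2 and Ackr3 were among the genes that were higher. Of the 40 members 35 passed the filter, and 7 of these were called higher and 21 lower, or 20.0% and 60.0%. Over all genes tested, 88.2% were called, 40.1% higher and 48.1% lower. The median log2 fold change was -1.17 over the tested members and -0.19 over all genes. Without the filter all 40 were tested, with 8 higher and 23 lower. The filter keeps a gene that is high in 1 group alone, so counts of those that passed describe them and support nothing further. With library sizes only, in place of TMM, the median of all genes was -1.28, 5 members were higher and 25 lower, and the calls over all genes split into 3521 higher and 11210 lower.

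The comparison of GMTT with GPI addresses the hydrogel in injured femurs. Most receptors and ligands were higher in GMTT, and the same 5 genes named above were lower. In all 29 tested members were called higher and 5 lower, or 82.9% and 14.3%, while 85.9% of all genes tested were called, 45.7% higher and 40.2% lower. The median log2 fold change was 2.39 over tested members and 0.12 over all genes, and over all genes it was 1.22 with library sizes only, where 79.2% of all calls were higher in place of 53.2%. Both comparisons share the GPI libraries, and their values are not independent.

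The comparison of GMTT with Sham asks what still differed from sham surgery after injury and hydrogel. Here 22 tested members were called higher and 5 lower, or 62.9% and 14.3%, while 57.8% of all genes tested were called, 29.5% higher and 28.3% lower. The median log2 fold change was 0.82 over tested members, and among all genes tested 4706 were higher and 4512 lower. Of 9 tested inflammatory CC ligands 5 were higher in GMTT, 1 was lower and 3 were not called. Cxcl1, Cxcl6, Cxcl13, Xcr1, Cx3cr1 and Ccr2 were higher too, and Ccr1l1, Ackr1, Ccl24, Cxcr4 and Ackr4 were lower. Under every alternative that tested them 17 higher and 2 lower calls were kept. Pan-leukocyte genes were close in these groups, with 4 of 8 called higher, none lower, and a median log2 fold change of 0.10. Other marker lists were not close. All 8 skeletal muscle genes (median 3.21), 7 fibroblast genes (0.88) and 6 adipocyte genes (1.86) were higher in GMTT. All 8 B cell genes (-0.74) and 7 erythroid genes (-0.93) were lower, and 6 of 10 neutrophil genes were higher (0.40). The part of these differences in the calls was not tested.

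**Figure D2:**
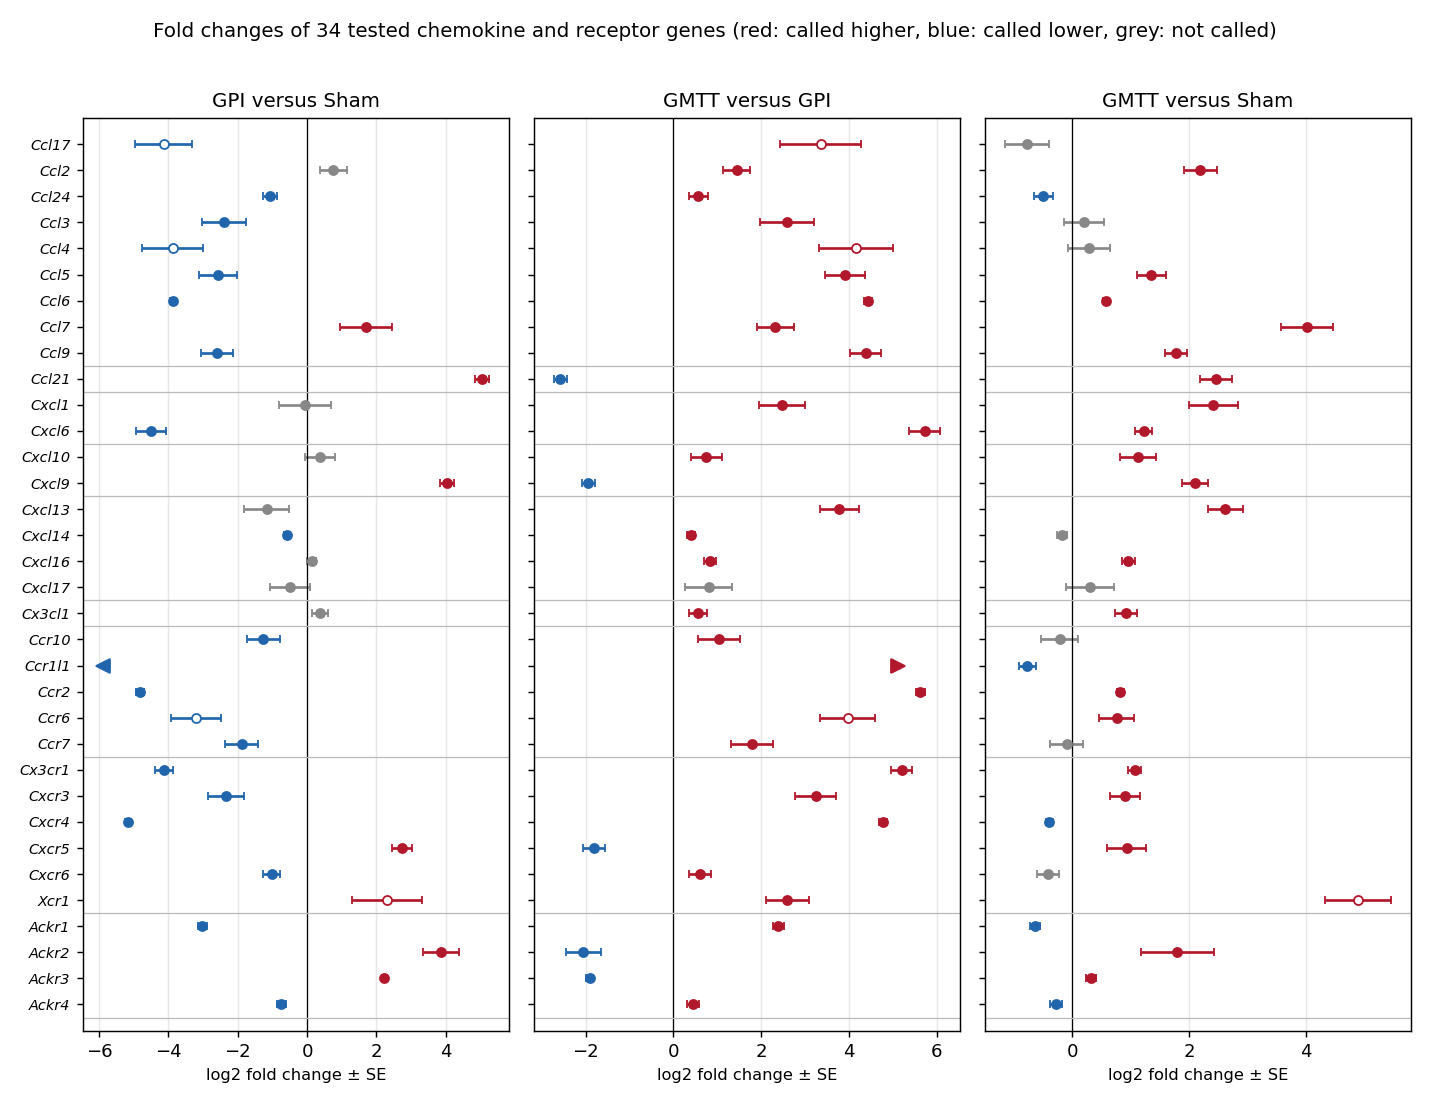
Log2 fold changes (horizontal axes, with SE) of 34 of the 35 tested members in the 3 comparisons, grouped by role from inflammatory CC ligands at the top to atypical receptors at the bottom. Triangles for Ccr1l1 mark a bound because GPI held no count, open circles mark comparisons with a group of 1 to 3 counts, and in GMTT against Sham 21 of the genes shown lie right of 0 as called.

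Among inflammatory CC ligands, the monocyte-attracting Ccl2 and Ccl7, both ligands of CCR2, were highest in GMTT. Ccl2 held 1.79, 1.93 and 2.02 normalised CPM in the GMTT libraries, 0.762, 0.756 and 0.578 in GPI, and 0.294, 0.563 and 0.368 in Sham. Every GMTT library lay above every other, and the GPI libraries lay above the Sham libraries by a small margin. Ccl2 was higher in GMTT than in Sham by 2.19 (SE 0.28; edgeR adjusted p = 4.57e-08) and than in GPI by 1.44 (SE 0.30; edgeR adjusted p = 5.19e-05). The value for GPI against Sham, 0.76 (SE 0.40), was not called, was -0.32 with library sizes only, and passed at 1.06 without Sham replicate 2 (edgeR adjusted p = 0.0355) and in all 3 limma fits on FPKM. Ccl7 held 1.54, 1.32 and 1.19 normalised CPM in GMTT, 0.339, 0.336 and 0.0963 in GPI, and 0.0489, 0.130 and 0.0460 in Sham. GMTT stood apart from both other groups, which overlapped. Ccl7 rose by 4.02 in GMTT against Sham (SE 0.45; edgeR adjusted p = 3.45e-09), on 93 counts over the group against 5, and by 4.64 without Sham replicate 2. In GPI against Sham it was called at 1.70 (SE 0.75) on 9 counts against 5. This call was lost without GPI replicate 1 or 2 or Sham replicate 1 or 3 (values of 1.45 to 1.49). It was also lost with library sizes only (0.65), without a low-count filter (1.68) and in limma on log2(FPKM + 1) without a filter (0.26). The value was 2.31 without Sham replicate 2.

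Ccl6 and Ccl9, myeloid ligands of CCR1 in the mouse, were lower in GPI than in Sham and higher in GMTT than in Sham. Ccl6, the most abundant ligand by counts, averaged 95.9 ± 3.27 normalised CPM in GMTT, 4.41 ± 0.302 in GPI and 64.1 ± 1.52 in Sham (SD, n = 3 each). It rose by 0.58 in GMTT against Sham (SE 0.05) and fell by 3.86 in GPI against Sham (SE 0.09). Ccl9 averaged 4.39 ± 0.572 in GMTT, 0.201 ± 0.0905 in GPI and 1.26 ± 0.387 in Sham, a rise of 1.78 in GMTT against Sham (SE 0.19; edgeR adjusted p = 2.26e-09). Ccl5 (RANTES, a T cell and monocyte attractant) averaged 2.74 ± 0.108, 0.173 ± 0.222 and 1.06 ± 0.410 in GMTT, GPI and Sham, and rose by 1.35 in GMTT against Sham (SE 0.25). Ccl3 and Ccl4, the macrophage inflammatory proteins, were lower in GPI than in Sham, with 4 counts against 42 and 1 against 34. In GMTT against Sham neither was called, at 0.20 (SE 0.34) and 0.29 (SE 0.36), and Ccl3 turned to -0.04 without Sham replicate 1. Their genes overlap on opposite strands. The labels describe strand-specific libraries, but the strand setting of the counting is not stated, and the counts of both are uncertain.

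Ccl24, an eosinophil attractant, and Ccl17, a T cell attractant, were highest in Sham. Ccl24 held 2.99, 2.24 and 2.50 normalised CPM in GMTT, 2.03, 1.51 and 1.64 in GPI, and 3.82, 3.55 and 3.59 in Sham, and the groups did not overlap. It fell by 0.50 in GMTT against Sham (SE 0.16; edgeR adjusted p = 0.00813), a call lost at -0.41 without GMTT replicate 2 and at -0.47 with DESeq2. In GMTT against GPI it was 0.57 higher (SE 0.22), a call lost at 0.46 without GMTT replicate 1, at 0.48 without GPI replicate 2 and at 0.55 with DESeq2. Ccl17 held 0.384, 0.396 and 0.307 in GMTT, 0, 0.0840 and 0 in GPI, and 0.538, 0.563 and 0.782 in Sham. Over the GPI libraries it had 1 count, against 41 in Sham, a ratio of 21.4 (exact 95% counting interval 3.63 to 866). In GMTT against Sham it was 0.78 lower and not called, but passed in the limma fits on log2(FPKM + 1) (value -0.36). Ccl12, a monocyte attractant in the mouse, and Ccl11, a further eosinophil attractant, were too low to test. Ccl12 held 20 counts over GMTT, 0 over GPI and 25 over Sham, at least 4.35-fold lower in GPI than in Sham on a floor of 3 counts over the group. Ccl11 held 7, 23 and 3 counts, a ratio of GPI to Sham of 14.7 (4.44 to 76.4).

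The homeostatic ligand Ccl21, which guides cells that carry CCR7 into lymphatic vessels and nodes, had the highest fold change of GPI against Sham among called members. It held 2.39, 1.71 and 1.80 normalised CPM in GMTT, 11.3, 13.0 and 11.1 in GPI, and 0.294, 0.347 and 0.414 in Sham. GPI libraries were highest and Sham libraries lowest, with no overlap. The log2 fold changes were 5.04 for GPI against Sham (SE 0.21; edgeR adjusted p = 1.21e-20), -2.58 for GMTT against GPI (SE 0.15) and 2.46 for GMTT against Sham (SE 0.28; edgeR adjusted p = 4.34e-09). Its receptor gene Ccr7 averaged 0.928 ± 0.264 in GMTT, 0.265 ± 0.0208 in GPI and 0.993 ± 0.341 in Sham (SD, n = 3 each). Ccr7 was lower in GPI than in Sham by 1.89 on the log2 scale (SE 0.47), while GMTT against Sham gave -0.10 (SE 0.29), not called, and 0.20 without Sham replicate 3 and 0.10 without GMTT replicate 3. Endothelial genes were higher in GPI, with sums of 369 to 397 in GMTT, 763 to 780 in GPI and 284 to 297 normalised CPM in Sham. Of its 6 genes 5 were called higher and 1 lower in GPI against Sham. Ccl27, a skin T cell attractant, had 14, 25 and 10 counts in GMTT, GPI and Sham, was not tested, and overlaps the more counted Il11ra1 on the other strand.

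The ligands Cxcl1 and Cxcl6 carry the glutamate-leucine-arginine motif before their first cysteines and attract neutrophils. Cxcl1 held 0.640, 1.01 and 0.878 normalised CPM in GMTT, 0.169, 0.0840 and 0.193 in GPI, and 0.147, 0.173 and 0.138 in Sham. It was higher in every GMTT library than in any other, by 2.41 against Sham (SE 0.42; edgeR adjusted p = 1.21e-05) and 2.47 against GPI (SE 0.53). GPI and Sham overlapped, on 5 and 10 counts. Cxcl6 held 7.55, 6.77 and 10.1 in GMTT, 0.0847, 0.336 and 0 in GPI, and 3.38, 3.60 and 3.49 in Sham. No groups overlapped: Cxcl6 fell by 4.51 in GPI against Sham (SE 0.43), or -6.09 without GPI replicate 2, which held most of its few GPI counts, and was 1.22 higher in GMTT than in Sham (SE 0.15; edgeR adjusted p = 4.9e-08). Neutrophil genes summed to 8579 to 9110 normalised CPM in GMTT, 8.77 to 10.7 in GPI and 7261 to 7804 in Sham, with no gene of 10 at 0 and 6 called higher in GMTT against Sham.

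RefSeq promoter windows of build GRCr8, 250 bases before to 50 after the start, were matched by symbol for 29 of the 40 members. Those with no match included Ackr1, Ccl5, Cxcr5, Ccl2, Ccr7, Ccl3, Ccr10, Ccl4, Ccr9 and Ccl11. The kappaB motif bound by NF-kB factors, searched on both strands, was in 4 of these 29 windows (13.8%) and in 4.18% of 33469 windows of the same length. The 4 were Cxcl1, Cxcl6, Ccl9 and Cxcl10, and they are shown because they hold this motif. All 4 were called higher in GMTT than in both other groups, the call of Cxcl10 against GPI being one that several alternatives lost. Such calls were common, since 82.9% of tested members were called higher in GMTT than in GPI and 62.9% than in Sham. Ccl6, Ccl7, Cxcl13, Cxcl16, Cx3cl1, Cx3cr1, Ccr2, Ccr6, Cxcr3 and Xcr1 were also called higher in GMTT than in both, and no kappaB match was found for them. Among these, Cx3cl1, Ccr6 and Cxcr3 had a call that some alternatives lost. Ccl2 and Ccl5 were called higher than in both too, but had no window. Capitals mark the kappaB match and, in Cxcl10, also the interferon-stimulated response element, a pair of GAAA runs parted by any NN, which was in 1 of the 29 and in 3.92% of all windows.
Cxcl1 (chr14:17479272-17479571, minus strand): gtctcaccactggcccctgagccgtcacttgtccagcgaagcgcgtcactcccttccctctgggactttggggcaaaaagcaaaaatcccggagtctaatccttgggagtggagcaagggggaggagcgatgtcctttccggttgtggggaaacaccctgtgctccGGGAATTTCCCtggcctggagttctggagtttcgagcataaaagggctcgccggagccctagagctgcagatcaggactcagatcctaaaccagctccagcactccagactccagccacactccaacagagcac
Cxcl6 (chr14:17596368-17596667, minus strand): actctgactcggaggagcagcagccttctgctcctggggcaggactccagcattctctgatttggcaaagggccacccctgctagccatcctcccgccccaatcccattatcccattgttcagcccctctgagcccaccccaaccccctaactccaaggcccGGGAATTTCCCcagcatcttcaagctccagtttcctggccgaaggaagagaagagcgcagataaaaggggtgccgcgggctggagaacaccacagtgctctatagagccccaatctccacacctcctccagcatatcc
Ccl9 (chr10:68868828-68869127, minus strand): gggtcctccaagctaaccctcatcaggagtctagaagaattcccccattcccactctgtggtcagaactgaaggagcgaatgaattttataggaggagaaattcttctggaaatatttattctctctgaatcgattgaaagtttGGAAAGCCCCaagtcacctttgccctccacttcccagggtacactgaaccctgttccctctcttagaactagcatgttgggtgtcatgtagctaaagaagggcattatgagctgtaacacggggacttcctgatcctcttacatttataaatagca
Cxcl10 (chr14:15988816-15989115, plus strand): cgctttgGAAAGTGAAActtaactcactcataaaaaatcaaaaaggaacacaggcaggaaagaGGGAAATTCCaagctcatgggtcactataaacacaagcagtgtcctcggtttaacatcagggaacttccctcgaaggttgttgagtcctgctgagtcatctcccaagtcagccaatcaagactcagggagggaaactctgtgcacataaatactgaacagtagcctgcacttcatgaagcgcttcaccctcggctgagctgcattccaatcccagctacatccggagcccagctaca
Cxcl1 and Cxcl6 share the same run of capitals, at positions -84 to -74 and -88 to -78 from the start, from 2 overlapping matches in each. The Ccl9 match is at -106 to -97 and the Cxcl10 matches are at -187 to -178 and -243 to -234. The STAT-type motif TTCNNNGAA was in 5 of the 29 windows (17.2%; 8.87% of all) and TATAAA in 11 (37.9%; 14.2% of all). These are letter matches and say nothing of binding. For each matched member 1 window was taken, while the set of all windows may include several of 1 gene. The shares of members and of all windows are therefore not counted alike.

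Cxcl9 and Cxcl10, ligands of the T cell receptor CXCR3 that interferon gamma induces, lie near each other on chromosome 14. Cxcl9 held 2.48, 3.82 and 4.83 normalised CPM in GMTT, 14.9, 15.0 and 12.5 in GPI, and 0.734, 0.910 and 0.920 in Sham. GPI was highest and Sham lowest, with no overlap. The changes were 4.04 for GPI against Sham (SE 0.20; edgeR adjusted p = 7.29e-18), -1.94 for GMTT against GPI (SE 0.15) and 2.10 for GMTT against Sham (SE 0.23; edgeR adjusted p = 6.74e-09). Cxcl10 averaged 1.05 ± 0.145 in GMTT, 0.619 ± 0.178 in GPI and 0.479 ± 0.140 in Sham (SD, n = 3 each). It was 1.12 higher in GMTT than in Sham (SE 0.31; edgeR adjusted p = 0.00277), and in GPI against Sham 0.37 (SE 0.42), not called, and -0.71 with library sizes only. The call of Cxcl10 in GMTT against GPI, 0.75 (SE 0.35), was lost without GMTT replicate 2 or 3, GPI replicate 2 or 3 or Sham replicate 2 (0.53 to 0.82), with DESeq2, without a low-count filter, with the replicate block (0.76), with median-of-ratios scaling and without mitochondrial, muscle and erythroid genes. Their receptor gene Cxcr3 averaged 1.72 ± 0.518 in GMTT, 0.177 ± 0.0861 in GPI and 0.923 ± 0.148 in Sham. Cxcr3 fell by 2.34 in GPI against Sham (SE 0.52) and rose by 0.90 in GMTT against Sham (SE 0.26), a call lost at 0.65 without GMTT replicate 1.

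Of the other CXC ligands, Cxcl13 was highest in GMTT, Cxcl16 rose there too, and Cxcl14 varied least. Cxcl13, which draws B cells through CXCR5, held 2.35, 1.67 and 2.28 normalised CPM in GMTT, 0.254, 0.0840 and 0.0963 in GPI, and 0.440, 0.347 and 0.230 in Sham. GMTT libraries stood apart, 2.62 higher than Sham (SE 0.30; edgeR adjusted p = 5.73e-09), and GPI and Sham overlapped. The GPI against Sham value of Cxcl13, -1.17 (SE 0.65), was not called but passed with library sizes only (-2.21), on log2(FPKM + 0.1) and without GPI replicate 1 (-1.84). Its receptor gene Cxcr5 held 0.726, 1.01 and 0.922 in GMTT, 2.96, 3.11 and 3.28 in GPI, and 0.734, 0.303 and 0.368 in Sham. GPI libraries were highest, by 2.74 against Sham (SE 0.29; edgeR adjusted p = 2.45e-10), while the other groups overlapped. GMTT was 0.93 above Sham (SE 0.33), a call lost without GMTT replicate 2 (0.83) or Sham replicate 2 or 3 (0.69 and 0.80). B cell genes ran opposite to Cxcr5 in GPI, with sums of 471 to 473 in GMTT, 1.54 to 2.94 in GPI, where Vpreb1 was at 0, and 777 to 804 normalised CPM in Sham. All 8 were called lower in GPI than in Sham and lower in GMTT than in Sham.

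Cxcl16, a membrane-bound ligand and scavenger receptor of macrophages, averaged 10.4 ± 0.973 normalised CPM in GMTT, 5.81 ± 0.547 in GPI and 5.31 ± 0.695 in Sham (SD, n = 3 each). It was 0.96 higher in GMTT than in Sham (SE 0.11; edgeR adjusted p = 1.59e-08), and 0.13 in GPI against Sham (SE 0.14), not called, and -0.96 with library sizes only. Cxcl16 overlaps Zmynd15, which has far fewer counts. Its receptor gene Cxcr6, of T and NK cells, averaged 1.87 ± 0.287 in GMTT, 1.23 ± 0.207 in GPI and 2.51 ± 0.231 in Sham. Cxcr6 fell by 1.02 in GPI against Sham (SE 0.24), and in GMTT against Sham it was -0.42 (SE 0.19), not called, but passed without GMTT replicate 2 (-0.54) or Sham replicate 3 (-0.50). The call of Cxcr6 in GMTT against GPI, 0.60 (SE 0.25), was lost without GMTT replicate 2 or 3 or GPI replicate 1 or 3 (0.47 to 0.61) and with DESeq2, and the gene overlaps the far more counted Fyco1 on the other strand. Cxcl14, made by fibroblasts and epithelia, averaged 15.99 ± 1.81 in GMTT, 12.1 ± 0.728 in GPI and 18.1 ± 1.36 in Sham. It fell by 0.58 in GPI against Sham (SE 0.10) and was 0.18 lower in GMTT than in Sham (SE 0.09), not called, though it passed without GMTT replicate 2 (-0.25) or Sham replicate 2 (-0.24). Cxcl17, a mucosal ligand, averaged 0.566 ± 0.156, 0.326 ± 0.138 and 0.456 ± 0.286 in GMTT, GPI and Sham and was called in no comparison, though with library sizes only it passed in GPI against Sham (-1.57) and in GMTT against GPI (1.88). In GMTT against Sham its value of 0.30 (SE 0.41) turned to -0.13 without Sham replicate 3.

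**Figure D3:**
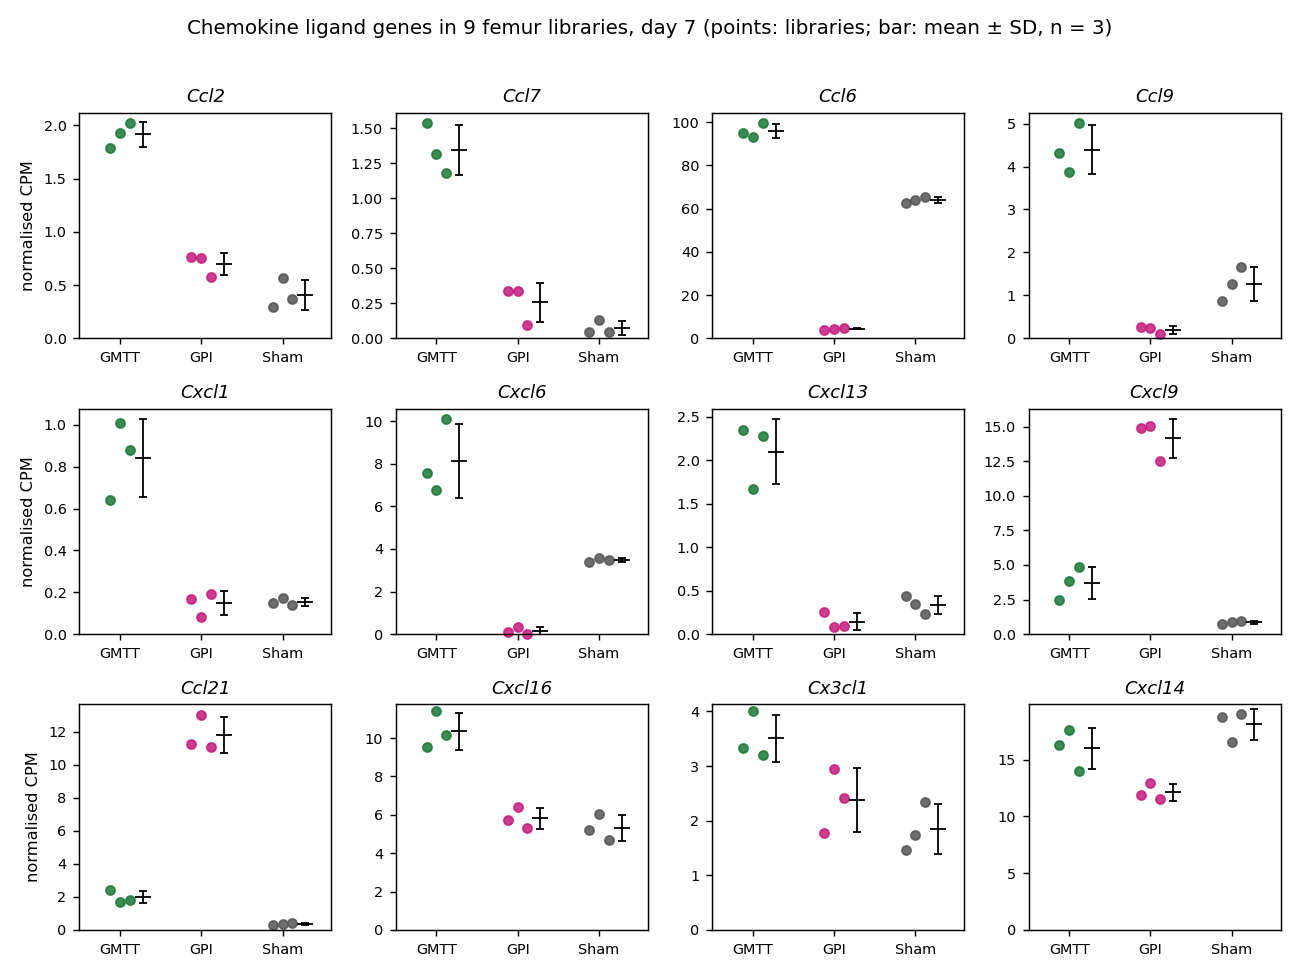
Normalised CPM (vertical axes, linear and starting at 0) of 12 ligand genes in the GMTT, GPI and Sham libraries; points are libraries and the black mark beside them is the mean with its SD. Ccl21 and Cxcl9 peak in GPI at 11.8 and 14.2 on average, while Ccl2, Ccl7, Ccl9, Cxcl1, Cxcl6 and Cxcl13 peak in GMTT.

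Cx3cl1, or fractalkine, is a membrane-bound ligand of endothelium and neurons, and Cx3cr1 is its receptor on monocytes and macrophages. Cx3cr1 held 12.3, 12.2 and 11.9 normalised CPM in GMTT, 0.423, 0.168 and 0.385 in GPI, and 5.73, 5.20 and 6.44 in Sham. The groups did not overlap, and the 11 counts over GPI stand against 835 in GMTT and 377 in Sham. Cx3cr1 rose by 1.07 in GMTT against Sham (SE 0.11; edgeR adjusted p = 4.16e-10) and by 5.20 against GPI (SE 0.23), and fell by 4.13 in GPI against Sham (SE 0.27). Cx3cl1 moved less, with 3.51 ± 0.428 in GMTT, 2.38 ± 0.582 in GPI and 1.85 ± 0.450 in Sham (SD, n = 3 each). It was 0.92 higher in GMTT than in Sham (SE 0.19; edgeR adjusted p = 9.88e-05). In GPI against Sham the value of Cx3cl1 was 0.36 (SE 0.23), not called, though it passed without Sham replicate 3 (0.55) and was -0.73 with library sizes only. Its call in GMTT against GPI, 0.56 (SE 0.21), was lost without GMTT replicate 2 (0.47) or GPI replicate 1 (0.38).

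Among CC receptors, Ccr2 of inflammatory monocytes was the one that stood most above Sham in GMTT by absolute level. It held 138, 145 and 168 normalised CPM in GMTT, 3.39, 2.27 and 3.47 in GPI, and 83.2, 87.6 and 83.5 in Sham. No groups overlapped. Ccr2 rose by 0.82 in GMTT against Sham (SE 0.06; edgeR adjusted p = 1.67e-12) and by 5.63 against GPI (SE 0.11), and fell by 4.81 in GPI against Sham (SE 0.11; edgeR adjusted p = 3.76e-26). Ccr1l1, a receptor gene like Ccr1 in sequence, held 2.82, 3.12 and 3.29 in GMTT, 0 in each GPI library, and 5.97, 5.37 and 4.41 in Sham. With 0 counts over GPI it was at least 59.6-fold lower there than in Sham, and at least 34.9-fold higher in GMTT than in GPI, on the floor of 3 counts. It is the one tested receptor of this class called lower in GMTT than in Sham, by 0.77 (SE 0.15; edgeR adjusted p = 7.34e-05).

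Monocyte and macrophage genes stand beside these receptors. Their sums were 4740 to 4902 normalised CPM in GMTT, 131 to 142 in GPI and 4510 to 4818 in Sham, with none of 10 genes at 0. Most of the sums in GMTT and Sham was Lyz2, which averaged 4105 in GMTT, 41.65 in GPI and 3999 in Sham. All 10 fell in GPI against Sham, with a median of -2.74. Lyz2 and Itgam fell most, at -6.58 and -5.86, and Cd14 and Mrc1 least, at -0.33 and -1.30. Of the 10, 6 were higher in GMTT than in Sham and 2 lower, with a median log2 fold change of 0.21.

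The lymphocyte-associated CC receptors were sparse. Ccr6, of B cells and T helper cells, held 70, 2 and 39 counts over GMTT, GPI and Sham, a ratio of Sham to GPI of 10.2 (exact 95% counting interval 2.64 to 87.1). Its 0.76 in GMTT against Sham (SE 0.30) lost the call without GMTT replicate 2 or 3 or Sham replicate 1 or 3 (0.55 to 0.80) and with DESeq2. Ccr10, of skin-homing and plasma cells, averaged 0.551 ± 0.0219 in GMTT, 0.265 ± 0.0208 in GPI and 0.641 ± 0.0924 in Sham. It was called lower in GPI against Sham (-1.26, SE 0.47; not called with DESeq2, -1.22). Its call in GMTT against GPI (1.04, SE 0.48) was lost without any 1 library of GMTT or GPI or Sham replicate 2 (0.99 to 1.10), with DESeq2, without a filter and with the replicate block (1.05). Ccr9, a gut-homing receptor, held 21, 3 and 27 counts and was not tested, and it overlaps Fyco1. T and NK cell genes, of which 9 of 10 listed had a row, summed to 108 to 118 normalised CPM in GMTT. The sums were 1.10 to 2.31 in GPI and 93.3 to 94.6 in Sham, with none at 0. Most of the sums in GMTT and Sham was Nkg7, which averaged 81.8 in GMTT and 69.5 in Sham. In GPI against Sham 7 of the genes were called lower and 0 higher. In GMTT against Sham 5 were called higher and 1, Cd3g, lower.

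Cxcr4, which keeps blood-forming cells and neutrophils in the marrow, was the most abundant member by counts in Sham. It held 147, 155 and 148 normalised CPM in GMTT, 6.52, 3.61 and 6.45 in GPI, and 195, 200 and 198 in Sham. The groups did not overlap, and Cxcr4 fell by 5.17 in GPI against Sham (SE 0.09; edgeR adjusted p = 7.12e-30). It was also below Sham in GMTT, by 0.40 (SE 0.06; edgeR adjusted p = 7.75e-07), a call lost in the 3 limma fits on FPKM at -0.36 to -0.37. Ccr2 and Cxcr4 thus had near-equal levels in GMTT by counts, at 150.0 ± 15.9 and 150.2 ± 4.41 normalised CPM, against 84.8 ± 2.45 and 198 ± 2.22 in Sham (SD, n = 3 each). Xcr1 marks cross-presenting dendritic cells, and Xcl1, from T and NK cells, is its ligand. Xcr1 held 1.41, 1.06 and 0.834 in GMTT, 0.0847, 0.252 and 0.193 in GPI, and 0.0489, 0.0433 and 0 in Sham. GMTT stood apart, with 76 counts against 2 in Sham, a ratio of 36.0 (exact 95% counting interval 9.62 to 302). GPI against Sham rested on 6 counts against 2, a ratio of 5.74 (1.03 to 58.2), and its call was lost without GPI replicate 2 or 3 or Sham replicate 3 (1.78 to 2.24), with library sizes only (1.28) and in the limma fits. Xcl1 did not pass the filter, at 31 counts in GMTT, 1 in GPI and 12 in Sham.

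**Figure D4:**
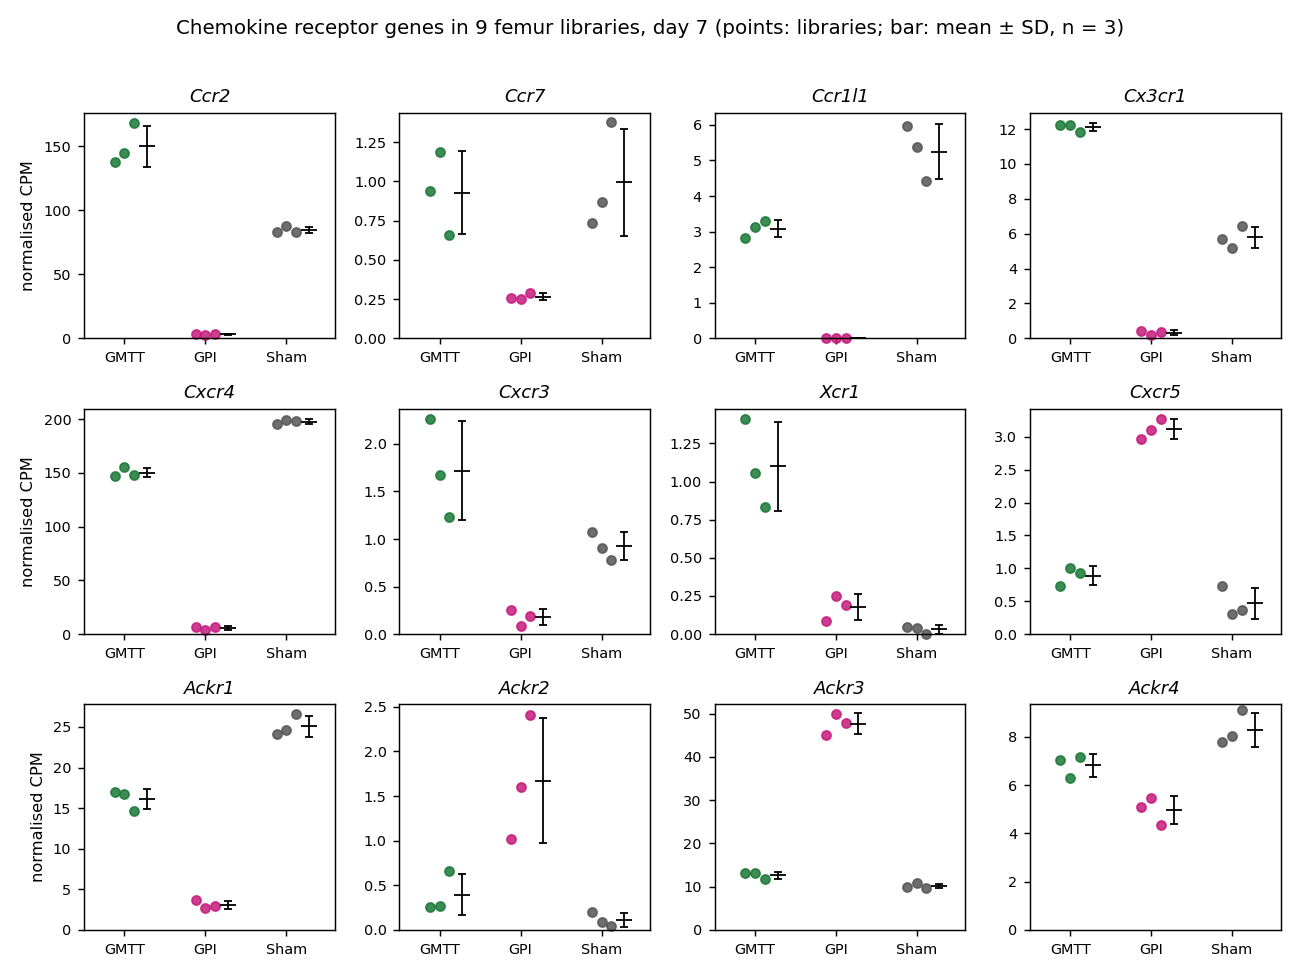
Normalised CPM (vertical axes, linear and starting at 0) of 12 receptor genes in the GMTT, GPI and Sham libraries; points are libraries and the black mark beside them is the mean with its SD. Ccr2, Cx3cr1 and Xcr1 lie highest in GMTT, Cxcr4, Ccr1l1, Ackr1 and Ackr4 in Sham, and Cxcr5, Ackr2 and Ackr3 in GPI.

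The atypical receptors split into a pair highest in GPI and a pair highest in Sham. Ackr3, a scavenger of CXC chemokines on endothelial and mesenchymal cells, held 13.1, 13.1 and 11.8 normalised CPM in GMTT, 45.1, 50 and 48.0 in GPI, and 9.98, 10.8 and 9.70 in Sham. GPI libraries were far above the rest, by 2.23 against Sham (SE 0.08; edgeR adjusted p = 1.62e-22), and GMTT lay 0.32 above Sham (SE 0.09; edgeR adjusted p = 0.00263). Ackr2, which clears inflammatory CC chemokines on lymphatic endothelium, held 0.256, 0.264 and 0.658 in GMTT, 1.02, 1.60 and 2.41 in GPI, and 0.196, 0.0866 and 0.0460 in Sham. The groups did not overlap, and Ackr2 was 3.86 higher in GPI than in Sham (SE 0.51; edgeR adjusted p = 2.86e-08), or 4.48 without Sham replicate 1. Its 1.80 in GMTT against Sham (SE 0.62) lost the call without GMTT replicate 3 (1.23) or Sham replicate 3 (1.46) and in the limma fits on FPKM, and was 2.43 without Sham replicate 1. Ackr1, the Duffy antigen receptor of red cell precursors and venules, held 17.0, 16.7 and 14.7 in GMTT, 3.64, 2.69 and 2.89 in GPI, and 24.1, 24.6 and 26.6 in Sham. Sham was highest and GPI lowest without overlap, with -3.02 for GPI against Sham (SE 0.12) and -0.64 for GMTT against Sham (SE 0.08; edgeR adjusted p = 3.22e-08). Erythroid genes took the same order, with sums of 4124 to 4175 in GMTT, 26.1 to 29.2 in GPI and 7613 to 7856 in Sham. All 7 were lower in GMTT than in Sham, and their median in GPI against Sham was -9.56, a far larger fall than that of Ackr1. The sums of B cell genes took this order too. Ackr4, a scavenger of CCL19, CCL21 and CCL25, held 7.04, 6.28 and 7.15 in GMTT, 5.08, 5.46 and 4.33 in GPI, and 7.78, 8.01 and 9.10 in Sham. Sham was highest without overlap, with -0.74 for GPI against Sham (SE 0.13), and the call of -0.28 in GMTT against Sham (SE 0.11) was lost without GMTT replicate 2 (-0.23) or Sham replicate 3 (-0.21), with DESeq2, with median-of-ratios scaling and in the limma fits. Ackr4 overlaps the more counted Acad11 on the other strand.

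Neighbouring members did not always move alike. On mRatBN7.2 chromosome 10, Ccl2 (67005424 to 67007226), Ccl7 (67016446 to 67018303), Ccl11 (67028328 to 67032926) and Ccl12 (67070230 to 67071780) follow each other on the plus strand, all protein-coding. Of these, Ccl2 and Ccl7 were highest in GMTT, Ccl11 in GPI and Ccl12 in Sham by mean level. Further along the same chromosome, Ccl5 (68322829 to 68327377), Ccl9 (68366487 to 68371369) and Ccl6 (68380188 to 68384001) were all higher in GMTT than in Sham and lower in GPI. On chromosome 8, the receptors Cxcr6, Xcr1, Ccr1l1 and Ccr2 lie between 123416325 and 123742100. Of these Xcr1 and Ccr2 were higher in GMTT than in Sham, Ccr1l1 was lower and Cxcr6 was not called. By mean level over the 40 members, 21 were highest in GMTT, 7 in GPI and 12 in Sham, as a description of the means alone.

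Genes that act with chemokine receptors were described from a list of 39, all of which were tested: proteases and enzymes that process ligands, G proteins and their effectors, kinases and arrestins that shut receptors off, and migration effectors. In GPI against Sham 2 rose and 35 fell, with a median log2 fold change of -2.26, where 40.1% of all genes tested were higher and 48.1% lower. The 2 that rose were Mmp2 (1.65, SE 0.05), a gelatinase that trims chemokines, and Adam17 (0.17, SE 0.05), a sheddase of CX3CL1. Mmp9, the neutrophil gelatinase, fell by 7.39 (SE 0.11) and Rac2, the blood cell Rac GTPase, fell by 6.81 (SE 0.09). Rgs18, a damper of receptor signalling in platelets, equalled Rac2 at -6.81 (SE 0.18). In GMTT against GPI 37 rose and 2 fell, with a median of 2.16, where 45.7% of all genes tested were higher and 40.2% lower. Mmp9 rose by 7.81 and Rac2 by 6.88, while Mmp2 fell by 0.34 (SE 0.05) and Adam17 by 0.15 (SE 0.05). With library sizes only, 1 partner was higher in GPI against Sham and 0 were lower in GMTT against GPI, and without GMTT replicate 1 or 2 the lower count in GMTT against GPI was 1. In GMTT against Sham 15 rose, 4 fell and 20 were not called, with a median of 0.08, where 29.5% of all genes tested were higher and 28.3% lower. Mmp2 rose by 1.31 (SE 0.05; edgeR adjusted p = 2.86e-20) and Rgs1, which damps receptor signalling in lymphocytes, by 1.05 (SE 0.33). The non-signalling receptor Ccrl2 fell by 1.04 (SE 0.10; edgeR adjusted p = 1.22e-10) and Tpst1, which sulphates receptor tyrosines, by 0.69 (SE 0.08). Rac2 also sits among the pan-leukocyte genes. The levels of Mmp2, 177 ± 5.32 in GMTT, 223 ± 12.5 in GPI and 71.0 ± 2.70 normalised CPM in Sham, stand beside fibroblast gene sums of 6202 to 6506 in GMTT, 6323 to 6754 in GPI and 3294 to 3432 in Sham.

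At the limit of the rule, the member with fewest counts was Ccl11, with 33 over the 9 libraries, and the gene just below it was Cxcl11, with 29. Cxcl11 held 24 counts over GMTT, 4 over GPI and 1 over Sham. In all 11 genes that met the name rule had 1 to 29 counts, and 2 had none.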

How the data were processed

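Bulk RNA of 9 rat femurs was sequenced from poly(A)-selected, strand-specific libraries, per the labels' protocols. The authors deposited raw counts and FPKM per gene in separate tables. Per the submitters' processing notes, reads were placed on mRatBN7.2. Aligner and counter: not given in the sources used here. The deposited FPKM carry the authors' own library sizes, which differ from the count totals, and were not rescaled further. Normalised CPM were computed from the deposited counts with TMM factors. Genes were kept by filterByExpr (minimum count 10) and tested in 1 model over the 3 groups with edgeR 4.0.16 in R 4.3.3 (glmQLFit robust, glmQLFTest, 2-sided), with Benjamini-Hochberg adjustment over the 15936 genes. The SE is the log2 fold change over the root of F. Alternatives used limma 3.58.1 on log2(FPKM + pseudocount), with pseudocounts of 1 and 0.1, DESeq2 1.42.0, other scalings and filters, a replicate block, and leaving out each library. Counting intervals are exact at 95% and, like the floor of 3 counts over a group, cover counting error only. The test was checked on simulated data in which few genes changed and all groups shared 1 baseline. That check does not cover shifts as wide as those between these groups. Libraries held 15927429 to 19715997 counts. Values in every library are given for Ccl2, Ccr2 and Cx3cr1 and for the 5 highest and 5 lowest called fold changes of each comparison, and partners by the 2 highest and 2 lowest. The members and lists were chosen with earlier results of these data known. Figures were drawn with matplotlib 3.10.9. Values of 1 member are not reported here, though the counts and sums over members include it.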

Additional observations from a re-analysis of the deposited data

How the results depend on the processing

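Counts of called members stayed within 1.5 times the reported ones except as follows. With a filter of 5 CPM in at least 3 libraries 15 members were tested, with 3 higher and 11 lower in GPI against Sham, 12 higher and 3 lower in GMTT against GPI, and 10 higher in GMTT against Sham: fewer genes were tested. In GMTT against Sham 3 members were lower with DESeq2 and 3 with limma on log2(FPKM + 0.1). Among partners, library sizes only gave 1 higher in GPI against Sham and 0 lower in GMTT against GPI, no low-count filter gave 1 lower in GMTT against GPI, leaving out 1 library gave 1 to 2 lower there, and each limma fit gave 2 lower in GMTT against Sham. Single genes changed sign, none of them called, as follows: with library sizes only in GPI against Sham, Cxcl16 (-0.96), Cx3cl1 (-0.73), Ccl2 (-0.32) and Cxcl10 (-0.71); Cxcl1 in GPI against Sham with DESeq2 (0.00), without GPI replicate 2 (0.23) and without Sham replicate 2 (0.03), over a range of -0.27 to 0.23 without any 1 library; and in GMTT against Sham, Ccr7 without GMTT replicate 3 (0.10) or Sham replicate 3 (0.20; range -0.31 to 0.20), Ccl3 without Sham replicate 1 (-0.04; range -0.04 to 0.43) and Cxcl17 without Sham replicate 3 (-0.13; range -0.13 to 0.75). With library sizes only the first 2 of these passed the threshold in the opposite direction. Apart from the stated filters the cause was not tested. Libraries of the same number gave no sign of pairing: their deviations correlated at -0.231 to 0.0907. Those of libraries of different number, from different groups, correlated at -0.146 to 0.211. With the replicate block 7 members were higher and 21 lower in GPI against Sham, 27 and 5 in GMTT against GPI, and 22 and 5 in GMTT against Sham. Partners then numbered 2 and 35, 37 and 2, and 13 and 4. Depth limits genes with few counts: Ccl4, Ccl17, Ccr6 and Xcr1 had 1 to 3 counts in some group.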

Other observations

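Among genes of the name rule under 30 counts, Ccl20, a ligand of CCR6, held 6, 7 and 10 counts in the GMTT libraries and 0 in every GPI and Sham library. Ccr4, a T cell receptor gene, held 2, 1 and 2 counts in GMTT and 0 elsewhere. Ccl19, a ligand of CCR7 like Ccl21, held 6 counts in GMTT, 4 in GPI and 3 in Sham. These genes were not part of the comparisons, and no test is given.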
